A study of Mus musculus with 6 samples.

Results

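Nnt and 9 nuclear genes for enzymes that remove reactive oxygen species in mitochondria were followed in mouse liver tumors. They are 10 of the 30236 genes in the expression table, and all 10 lay above the filter on low values, which kept 22677 genes. Nnt was chosen by its own values, since it appeared at 2 levels across the libraries. Sod2, Prdx3, Prdx5, Txn2, Txnrd2, Glrx2, Gpx1, Gpx4 and Idh2 were chosen by function. RNA-seq was run on 3 tumors labelled WT and 3 labelled Top1mt -/- (Top1mt-KO), from male C57BL/6 littermates. All received diethylnitrosamine, a liver carcinogen, on day 14 after birth. From 8 weeks of age, all were also given carbon tetrachloride, which injures the liver, for 14 weeks, and tumors were taken at 22 weeks. The knockout line was kept by breeding heterozygotes. The labels give no substrain of C57BL/6, and do not say whether the 3 tumors of a genotype came from different mice, so p-values measure the spread between these tumors only.

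Mitochondria make superoxide as a by-product of respiration. Superoxide dismutase turns it into hydrogen peroxide, which peroxiredoxins and glutathione peroxidases reduce further with electrons drawn from thioredoxin and glutathione. These carriers are in turn recharged with NADPH. In the matrix, NADPH is supplied by Nnt, the nicotinamide nucleotide transhydrogenase, an inner membrane enzyme that uses the proton gradient to pass hydride from NADH to NADP. Idh2, the isocitrate dehydrogenase of the matrix, is another source. C57BL/6J mice are known for an inherited deletion of several Nnt exons, which C57BL/6N mice do not carry. The table holds 1 Nnt value per library, and whether these tumors differed in that allele was not tested.

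The values are log2 expression values that were normalized between libraries by the authors. They carry no read counts, so the depth behind each value is unknown. The targeted gene, Top1mt, had log2 values of 7.71, 5.99 and 8.01 in WT replicates 1, 2 and 3 as labelled, and 5.58, 6.41 and 6.32 in those labelled KO. Labelled WT, replicate 2 of that group thus fell below KO replicates 2 and 3, against its label, and every direction below rests on the labels as given. In KO replicate 1 the transcript Gm42418 reached 22.00, against 11.66 to 15.80 in the others. Lars2 and Gm15564 were also highest there, at 20.06 and 16.84. WT replicate 3, a library with low Nnt, was next in all 3, at 15.80, 12.67 and 8.85. Hepatocyte markers were high in every library, with all 9 markers between 11.74 and 21.12. Tumor pieces hold several cell types, and fewer cells of a type cannot be told apart from less RNA per cell.

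Nnt was high in 4 libraries and low in 2. Its log2 value was 10.31 in WT replicate 1 and 10.06 in WT replicate 3, and 11.62 in WT replicate 2. The libraries labelled KO had 11.40, 11.67 and 11.60. WT replicate 2 therefore lay with the KO libraries, between KO replicates 3 and 2, and the labelled groups overlapped. The gap between the higher of the 2 low libraries and the lowest of the 4 high ones was 1.08 on the log2 scale, or 2.12-fold. Within the 2 low libraries the values spread over 0.26, and within the 4 high ones over 0.27. By labelled genotype, Nnt was 10.66 ± 0.84 in the WT tumors against 11.55 ± 0.14 in the KO tumors (SD, n = 3 each), which differ by 0.89 on the log2 scale. These values led to the choice of the gene and are given without a test. Without WT replicate 2 the difference was 1.37, and without WT replicate 3 it was 0.59.

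Top1mt was ordered the other way. WT replicates 1 and 3, the libraries with low Nnt, were its 2 highest, and they stood above all others by a gap of 1.297 on the log2 scale. WT replicate 2 had both the low Top1mt and the high Nnt seen in the libraries labelled KO. Over all genes tested, WT replicates 1 and 3 were the 2 highest libraries in 7.03% and the 2 lowest in 6.11%. A gap at least as wide as that of Nnt was seen in 22 of the 22677 genes, Nnt included. A gap in the other direction at least as wide as that of Top1mt was seen in 17, Top1mt included. Both genes were singled out with these values known, so the counts are a description.

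**Figure D1:**
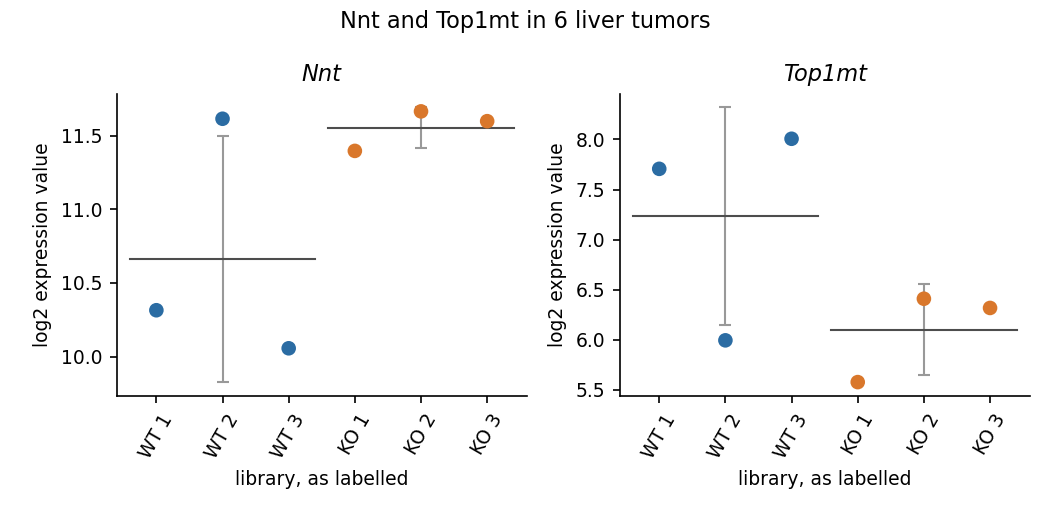
Log2 expression values of Nnt (left) and Top1mt (right) in each library, with points in blue for libraries labelled WT and orange for KO; lines are group means and bars the SD (n = 3). WT replicate 2 sits with the KO libraries in both panels, at 11.62 for Nnt and 5.99 for Top1mt.

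In the annotation of GRCm38 (GENCODE M21), Nnt lies on the minus strand of chromosome 13, from 119335448 to 119408997. It is listed there under 2 overlapping entries, ENSMUSG00000025453 and ENSMUSG00000116207, while the expression table has 1 Nnt value per library. Paip1, a translation factor that binds the poly(A)-binding protein, is the nearest gene on the right. It was 9.79, 10.23 and 9.71 in WT replicates 1 to 3, against 9.79, 9.96 and 10.15 in KO replicates 1 to 3, so WT replicates 1 and 3 were also its 2 lowest libraries, with KO replicate 1 level with WT replicate 1 at this rounding. The next gene, 4833420G17Rik, ran from 8.86 to 9.07 with WT replicate 1 second highest. Fgf10, a growth factor and the nearest protein-coding gene on the left, was between -0.93 and -0.78 and Gm16263 was between -1.92 and -1.84, both near the bottom of the scale.

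The genes with the profile most like that of Nnt were found by the root mean square difference between centred log2 values over the 6 libraries. The nearest 4 were Gm12419 (0.143), Gm27931 (0.168), Hist1h1d (0.180) and Gm22345 (0.198). All 4 had WT replicates 1 and 3 as their 2 lowest libraries. Gm12419, Gm27931 and Gm22345 are weakly expressed, with values of at most 3.06. Hist1h1d, a linker histone, was 7.15, 8.65 and 7.49 in WT, against 8.60, 8.82 and 8.72 in KO. None of the 4 is an antioxidant gene by the lists used here. The members of the antioxidant group ranked from 7763 (Txnrd2) to 13845 (Gpx1) of the 22677 genes in likeness to Nnt, with differences of 0.680 to 0.815. The measure is not scaled, so a gene that barely varies also gets a middle rank. Fgf10, which barely varied, ranked 6630 with a difference of 0.666. A middle rank thus does not show partial likeness to Nnt.

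The other 9 antioxidant genes did not have the library order of Nnt. WT replicates 1 and 3 were the 2 lowest libraries in 0 of the 9 and the 2 highest in 0 of the 9, beside 6.11% and 7.03% of all genes tested. For 9 genes, counts of 0 are near these shares. In Prdx3 and Gpx4, WT replicates 1 and 3 lay below every library except KO replicate 3, which was lowest. After quantile normalization this held in Gpx4 and not in Prdx3, and Gpx1 had WT replicates 1 and 3 as its 2 highest. From the lowest to the highest library, the 9 genes spanned 0.34 (Glrx2) to 1.18 (Gpx4) on the log2 scale. Nnt spanned 1.61, and the median over all genes tested was 1.03.

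Between libraries labelled Top1mt-KO and WT, 0 of the 9 genes had an adjusted p under 0.05 by limma with Benjamini-Hochberg adjustment, beside 0% of all genes tested. The smallest adjusted p of any gene by limma was 0.938. Top1mt, the targeted gene, was not called either (log2 fold change -1.13, limma's adjusted p = 0.999). With no adjustment, 0 of the 9 had a p under 0.05, beside 4.34% of all genes. The groups were free of overlap in 0 of the 9, beside 8.28% of all genes. The log2 fold change was below 0 in 8 genes and above 0 in Txnrd2, with a median of -0.093 (-0.20 to 0.017 with one library left out), where the median of all genes tested was -0.015. The median size of the change was 0.14 in the 9 genes and 0.21 in all genes. The 95% intervals from limma ran at their widest from -0.85 to 0.56 in Gpx4, and at their highest to 0.64 in Txnrd2. The intervals thus reached from a KO to WT ratio of 0.556 in Gpx4 to one of 1.55 in Txnrd2.

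**Figure D2:**
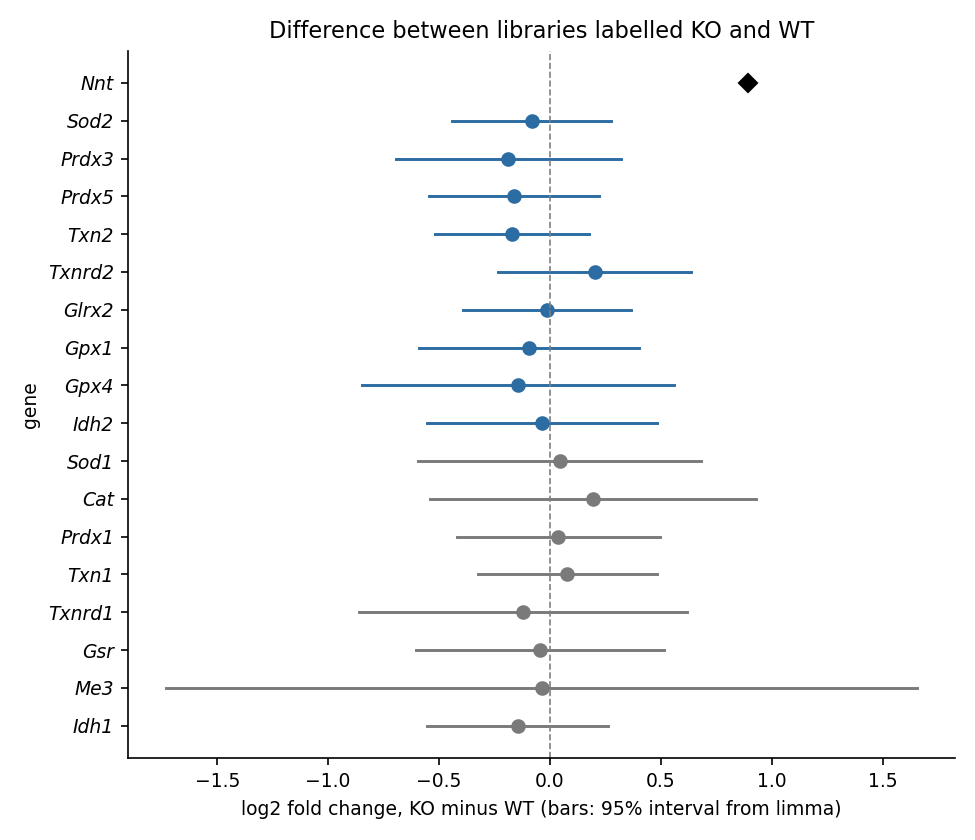
Log2 fold change of libraries labelled KO against WT for Nnt (black diamond, shown without an interval because the gene was chosen by its values), the other 9 members (blue) and 8 counterparts outside mitochondria or in other NADPH routes (grey), with 95% intervals from limma. All 17 intervals cross 0, and Nnt lies at 0.89.

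Sod2, the manganese superoxide dismutase, makes the first step. Its log2 value was 10.92, 10.77 and 10.66 in WT, against 10.51, 10.95 and 10.65 in KO. The groups overlapped, with KO replicate 1 lowest and KO replicate 2 highest. The log2 fold change was -0.083 (standard error 0.16, limma's adjusted p = 0.999, p = 0.7 by an exact permutation test, two-sided, whose smallest possible p with 3 libraries a group is 0.1). Idh2 was ordered alike at its ends. It was 10.89, 10.86 and 10.82 in WT, against 10.50, 11.36 and 10.60 in KO. KO replicate 2 was thus above and KO replicates 1 and 3 below all WT libraries, and the log2 fold change was -0.036 (standard error 0.22, limma's adjusted p = 0.999).

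The peroxiredoxins and the thioredoxin that serves them were lowest in KO replicate 3. Prdx3, the peroxiredoxin of the matrix, was 10.96, 11.22 and 10.97 in WT, against 11.20, 11.01 and 10.38 in KO. Prdx5, which acts in mitochondria, peroxisomes and the cytosol, was 11.00, 10.97 and 11.04 in WT, against 11.09, 10.91 and 10.53 in KO. Txn2, the mitochondrial thioredoxin, was 10.07, 10.15 and 10.07 in WT, against 10.18, 9.87 and 9.72 in KO. In all 3 genes KO replicate 1 lay at or near the top and KO replicate 3 at the bottom, so the KO libraries surrounded most WT values. Their log2 fold changes were -0.19, -0.16 and -0.17. Without KO replicate 3 they were 0.053, -0.0046 and -0.068. Without KO replicate 1 that of Txn2 was -0.30, with an unadjusted p under 0.05 by limma (adjusted p = 0.835). Txnrd2, the selenoprotein that reduces Txn2 with NADPH, went another way. It was 8.12, 8.03 and 8.43 in WT, against 8.14, 8.65 and 8.41 in KO, with KO replicate 2 highest, and its log2 fold change was 0.20 (standard error 0.19, limma's adjusted p = 0.999). It was 0.077 without KO replicate 2 and 0.33 without KO replicate 1.

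The glutathione branch was mixed. Gpx4, the glutathione peroxidase that acts on lipid peroxides in membranes, was 11.52, 11.99 and 11.46 in WT, against 11.92, 11.80 and 10.81 in KO. KO replicate 3 stood below the other 5 libraries, and without it the log2 fold change moved from -0.14 to 0.21. Gpx1, the main peroxidase of cytosol and mitochondria in liver, was 13.37, 12.85 and 13.29 in WT, against 13.07, 13.31 and 12.85 in KO. WT replicate 2 and KO replicate 3 were lowest. Glrx2, the mitochondrial glutaredoxin, was 7.75, 7.97 and 8.09 in WT, against 8.07, 7.84 and 7.86 in KO, the narrowest span of the group. Its log2 fold change was -0.015 (standard error 0.16, limma's adjusted p = 0.999).

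KO replicate 3 was the lowest library in 4 of the 9 genes, Prdx3, Prdx5, Txn2 and Gpx4, beside 22.4% of all genes tested. KO replicate 2 was the highest in 3, Sod2, Txnrd2 and Idh2, beside 14.2% of all genes. KO replicate 1 was the lowest in 2, Sod2 and Idh2, beside 17.1%. KO replicate 3 also had the lowest mean of centred log2 values over the 9 genes, at -0.29, where the other libraries lay between 0.021 and 0.14. WT replicates 1 and 3, with their low Nnt, had 0.021 and 0.047, next to 0.046 in WT replicate 2. The mean level of the other enzymes thus did not separate the libraries with low Nnt from WT replicate 2.

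**Figure D3:**
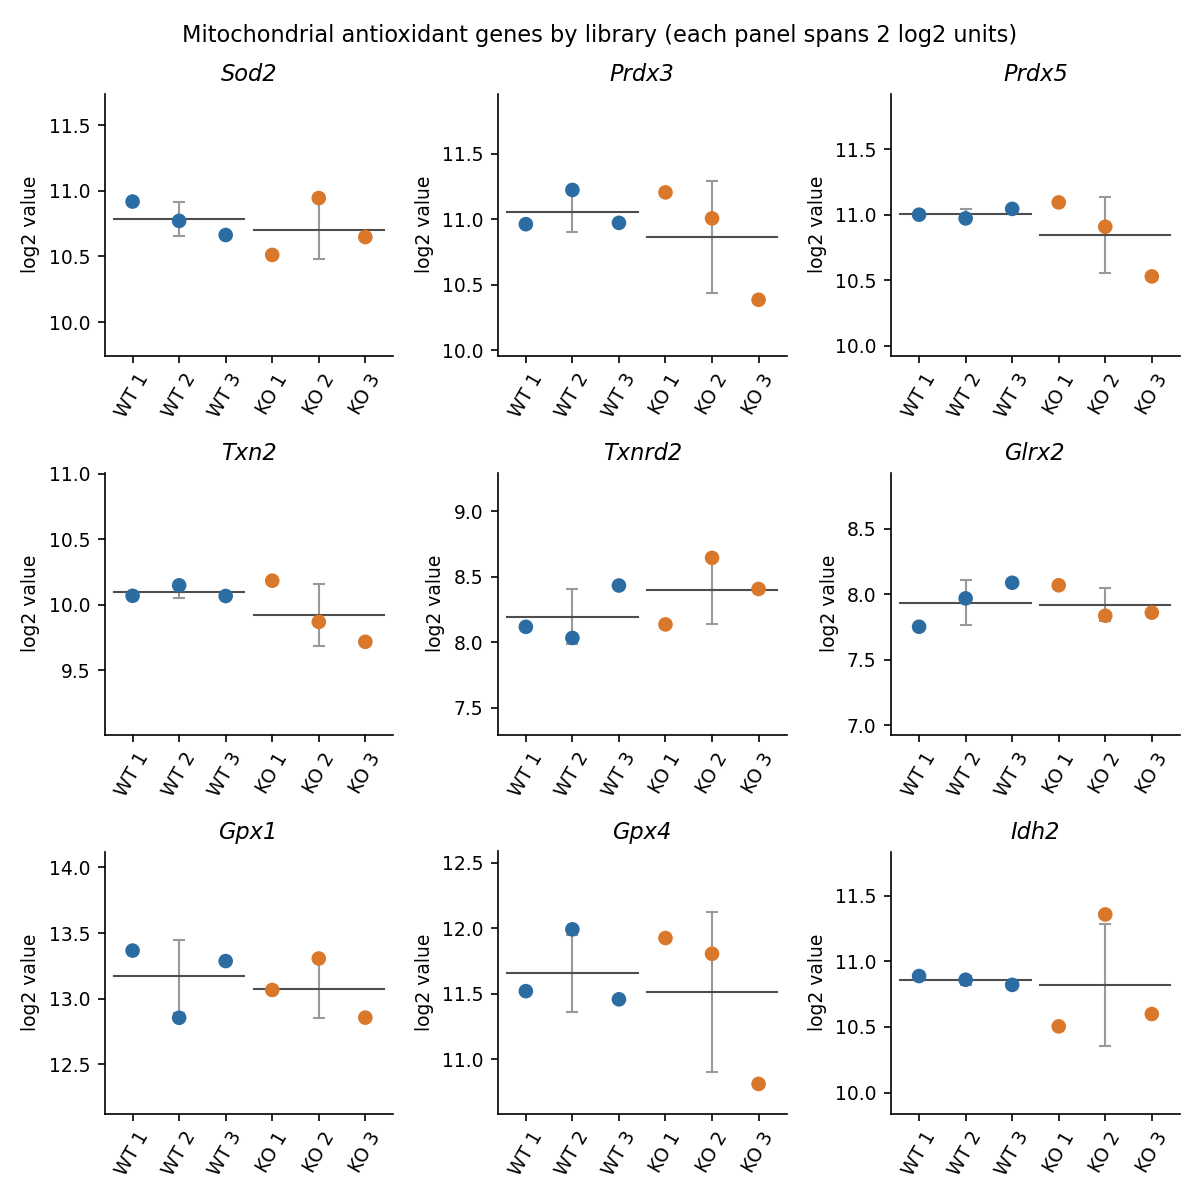
Log2 expression values of the 9 members other than Nnt in each library (blue, labelled WT; orange, labelled KO), with the group mean and SD (n = 3); each panel spans 2 log2 units. WT replicates 1 and 3 are not the 2 lowest points in any panel, and KO replicate 3 is lowest in Prdx3, Prdx5, Txn2 and Gpx4.

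Upstream sequences were available from RefSeq (GRCm38.p6) for all members other than Nnt. They cover the 250 bases before each annotated start, and some genes have several starts. The core of the antioxidant response element, TGACNNNGC, was found on either strand in 0 of the 9 genes, beside 11.5% of 27025 genes. The core of the site of nuclear respiratory factor NRF1, TGCGCA, was found in Gpx4 alone, beside 7.36% of genes. The Sp1 box, GGGCGG or its reverse complement CCGCCC, was found in 8 of 9, all but Gpx1, beside 35.4% of genes. These matches describe letters in the windows and not binding. Of the 4 genes that were lowest in KO replicate 3, the 3 with a single annotated start are shown from 5′ to 3′, with Sp1 boxes in capitals.
Prdx3, chr19:60874539-60874788, minus strand: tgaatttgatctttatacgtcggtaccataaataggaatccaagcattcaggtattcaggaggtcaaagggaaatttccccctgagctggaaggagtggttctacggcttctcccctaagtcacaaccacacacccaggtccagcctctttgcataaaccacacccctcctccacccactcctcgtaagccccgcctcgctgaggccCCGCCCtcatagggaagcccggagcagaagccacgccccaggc
Prdx5, chr19:6910107-6910356, minus strand: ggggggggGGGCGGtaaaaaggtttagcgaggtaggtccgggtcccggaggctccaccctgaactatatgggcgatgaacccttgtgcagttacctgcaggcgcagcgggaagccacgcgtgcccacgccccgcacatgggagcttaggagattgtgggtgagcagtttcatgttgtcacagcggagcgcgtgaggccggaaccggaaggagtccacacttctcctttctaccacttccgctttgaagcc
Txn2, chr15:77928995-77929244, minus strand: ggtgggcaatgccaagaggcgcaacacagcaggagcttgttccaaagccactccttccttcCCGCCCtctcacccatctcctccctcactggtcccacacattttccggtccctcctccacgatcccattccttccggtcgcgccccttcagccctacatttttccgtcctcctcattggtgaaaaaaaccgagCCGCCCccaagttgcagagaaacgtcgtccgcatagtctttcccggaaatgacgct
The boxes lie at different distances from the start in the 3 genes. Prdx3 and Prdx5 have 1 box each and Txn2 has 2. The bases G and C make up 55.6%, 61.2% and 57.6% of the windows.

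Other genes of the same chemistry were read from lists. Of 8 other genes listed for mitochondrial NADPH supply, 0 passed an adjusted p of 0.05 by limma. The median log2 fold change was -0.17, or -0.028 without WT replicate 2 and -0.29 without KO replicate 3. With no adjustment, 1 of the 8 had a p under 0.05, beside 4.34% of all genes. That gene was Mthfd1l, at -1.10, an enzyme of mitochondrial folate metabolism that makes formate and not NADPH. Its lowest library was KO replicate 3, and without it the difference was -0.60. Mthfd2, of the same pathway, went the other way at 0.86, with overlapping groups (limma's unadjusted p = 0.070, adjusted p = 0.999). Nadk2, the mitochondrial NAD kinase, was 11.51, 11.48 and 11.46 in WT, against 11.43, 11.43 and 11.13 in KO, with no overlap and a log2 fold change of -0.15 with a standard error of 0.14 (limma's adjusted p = 0.999). Without KO replicate 3 it was -0.055. Nadk2 was the 1 gene of the 8 without overlap, beside 8.28% of all genes. Me3, a mitochondrial malic enzyme, was weakly expressed, at 0.66 to 2.97. WT replicates 1 and 3 were the 2 lowest libraries in 0 of these 8 genes and the 2 highest in 0.

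Of 15 cytosolic and secreted antioxidant enzymes, 0 passed by limma's adjusted p, and 8 had log2 fold changes above 0. The 1 gene at an unadjusted p under 0.05, beside 4.34% of all genes, was Glrx, the cytosolic glutaredoxin. It was 7.59, 7.74 and 7.77 in WT, against 7.19, 7.38 and 6.80 in KO. It was also the 1 gene of the 15 without overlap, beside 8.28% of all genes. Its log2 fold change was -0.58 (standard error 0.20, limma's adjusted p = 0.999). Its mitochondrial relative Glrx2 had -0.015, but the difference between them was not tested. Sod1, the copper and zinc superoxide dismutase, was 12.63, 13.35 and 12.47 in WT, against 13.16, 12.90 and 12.53 in KO. WT replicate 3 was its lowest library and KO replicate 3 the next, so it did not have the order of Nnt. In likeness to Nnt, Sod1 ranked 1014 of the 22677 genes, nearer than any member other than Nnt. The 15 genes ranked from there to 22646 (Gpx2). Cat, the catalase of peroxisomes, had a log2 fold change of 0.19, Prdx1 of 0.038 and Txn1 of 0.077, each with a limma adjusted p of 0.999. WT replicates 1 and 3 were the 2 lowest libraries in 0 of the 15 genes and the 2 highest in 0.

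Txnrd1, the cytosolic thioredoxin reductase, and Gsr, glutathione reductase, were lowest in WT replicate 2. Txnrd1 was 11.50, 10.66 and 11.72 in WT, against 10.99, 11.70 and 10.83 in KO. Gsr was 10.34, 9.62 and 10.31 in WT, against 9.88, 10.42 and 9.84 in KO. In both, WT replicates 1 and 3 and KO replicate 2 formed the upper 3 libraries. Of the 8 genes of glutathione synthesis, reduction and carriers, 0 passed by limma's adjusted p and 0 had an unadjusted p under 0.05. Slc25a39, which carries glutathione into mitochondria, was 11.88, 11.99 and 11.93 in WT, against 12.01, 12.18 and 12.14 in KO. It was the only one of the 8 without overlap, beside 8.28% of all genes, over a span of 0.30. It was also the only one with WT replicates 1 and 3 lowest, beside 6.11% of all genes. Of the 4 cytosolic NADPH sources, 0 passed, and Idh1, the cytosolic isocitrate dehydrogenase, had a log2 fold change of -0.14. In 1 of these 4, G6pdx, the first enzyme of the pentose phosphate pathway, WT replicates 1 and 3 were the 2 highest libraries, beside 7.03% of all genes.

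**Figure D4:**
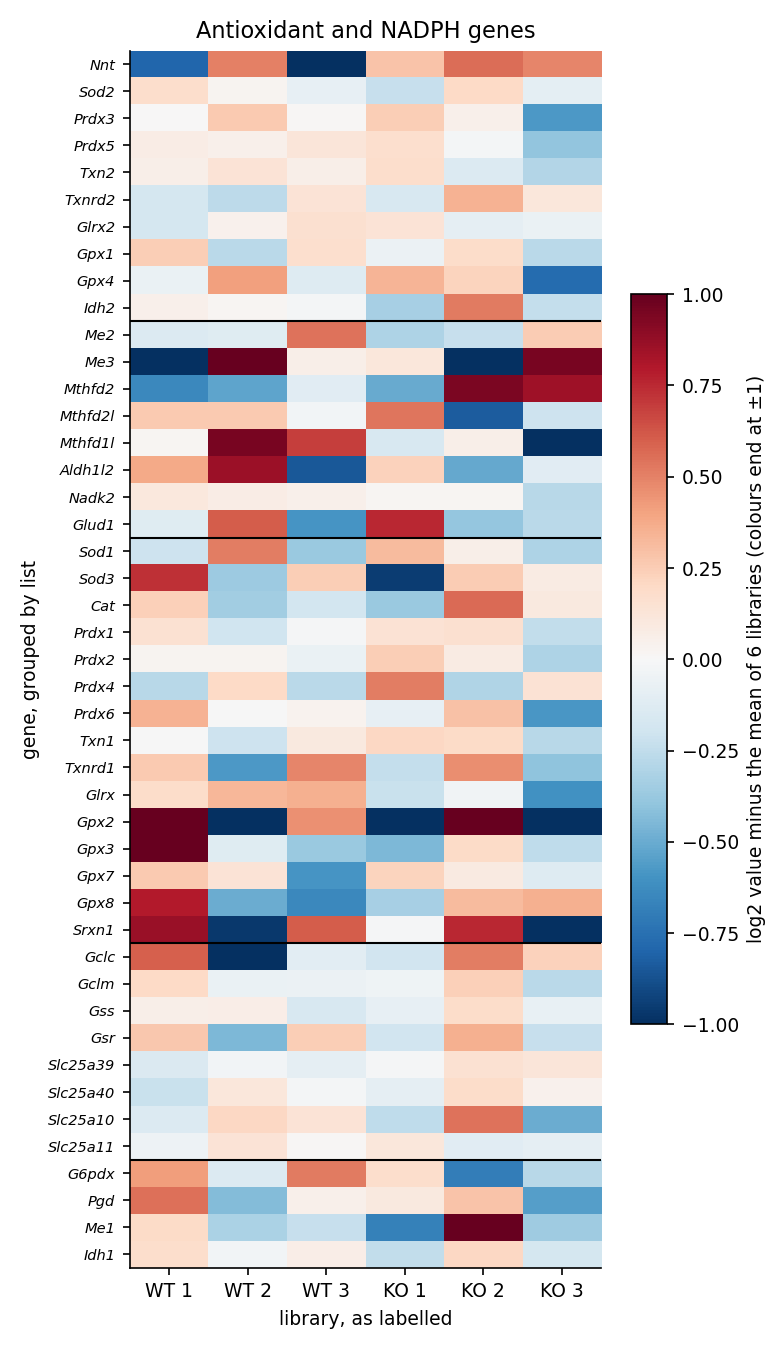
Log2 values minus the mean of the 6 libraries, for the 10 members (top block) and, below, other mitochondrial NADPH sources, cytosolic and secreted antioxidant enzymes, glutathione genes and cytosolic NADPH sources; red is above and blue below the mean, and colours end at 1 log2 unit. The blue cells of WT 1 and WT 3 beside red cells in the other 4 libraries are seen in the Nnt row, and not in the other rows of the top block.

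Genes of mitochondria with no antioxidant role gave a reference. Among 14 of them, such as Cs, Vdac1, Hspd1 and subunits of the respiratory complexes, 0 passed by limma's adjusted p, 0 had an unadjusted p under 0.05, and the median log2 fold change was 0.011, or -0.10 without KO replicate 2 and 0.040 without KO replicate 1. Their mean centred value was 0.016 and -0.084 in WT replicates 1 and 3, 0.034 in WT replicate 2, and -0.089, 0.18 and -0.054 in KO. In 2 of the 14, Cox4i1 and Timm23, WT replicates 1 and 3 were the 2 lowest, beside 6.11% of all genes. KO replicate 2 was the highest library in 7 of the 14 and KO replicate 1 the lowest in 6, beside 14.2% and 17.1% of all genes. Sod2 and Idh2 had the same ends.

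Markers of cell types were read beside the order of Nnt. Of the 9 hepatocyte markers, 2 had WT replicates 1 and 3 as their 2 lowest libraries, as Nnt did, beside 6.11% of all genes. Ttr, the thyroid hormone carrier transthyretin, was 16.11, 16.37 and 15.65 in WT, against 16.70, 16.38 and 16.78 in KO. Alb, serum albumin, was 20.62, 20.98 and 20.26 in WT, against 21.12, 20.64 and 20.84 in KO. In likeness to Nnt they ranked 132 and 528 of the 22677 genes, nearer than any of the other 9 antioxidant genes. Asgr1 and Apob, both lowest in WT replicate 3, ranked 2330 and 2378. The remaining hepatocyte markers were less like Nnt, at ranks from 8533 (Apoa1) to 14345 (Cps1) and 17640 (Tat). WT replicate 3, a library with low Nnt, was the lowest in 4 of the 9, beside 13.3% of all genes. KO replicate 2, a library with high Nnt, was also the lowest in 4 of the 9, beside 15.7% of all genes. The mean of centred log2 values over the 9 was lowest in KO replicate 2, at -0.29, next to -0.24 in WT replicate 3. The summed level of the 9 markers on the log2 scale, set mostly by Alb, was 21.13, 21.55 and 20.86 in WT, against 21.65, 21.10 and 21.35 in KO. Its lowest library was WT replicate 3 and the next was KO replicate 2. Of 5 bile duct markers, 3 had WT replicates 1 and 3 as their 2 highest libraries, beside 7.03% of all genes. Krt7 was 6.23, 5.35 and 6.04 in WT, against 2.57, 5.42 and 3.06 in KO, and Krt19 and Epcam had the same 2 libraries on top. Krt7 and Krt19, 2 of the 5, had an unadjusted p under 0.05 by limma (adjusted p = 0.999 for Krt7), beside 4.34% of all genes. Sox9 and Spp1 did not. Their summed level on the log2 scale, set by Spp1, ran from 11.58 to 12.62 in WT and from 11.70 to 12.58 in KO. The 2 highest libraries were WT replicates 1 and 3 in 2 of the 7 macrophage markers, beside the same 7.03% of all genes. They were so in 1 of the 7 stellate and fibroblast markers, and in 0 of the 8 lymphocyte and 6 endothelial markers. Unadjusted p-values under 0.05 by limma were also seen for Cd163 (1 of 7 macrophage markers), Lrat (1 of 7 stellate and fibroblast markers) and Cdh5 (1 of 6 endothelial markers). The share of all genes was 4.34%. Their log2 fold changes were 1.08, -0.79 and 0.40. Hepatocyte and lymphocyte markers had 0 such genes. The part of hepatocytes and bile duct cells in the levels of Nnt was not tested.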

How the data were processed

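RNA from 6 liver tumors was measured by stranded RNA-seq, 3 labelled WT and 3 labelled Top1mt-KO. Log2 values for 30236 genes were deposited by the authors, with 5 symbols occurring more than once, and the transform is not named. The values run from -2.24 to 22.00, and depth is unknown. Fgf10 and Gm16263, near the bottom, barely varied, while Me3 ran from 0.66 to 2.97. Fold changes of the weakest genes may thus be understated, which was not tested. The paper names BWA and a genome Mm 8, while the submitters' processing notes list GRCm38, STAR 2.5.1, Trimmomatic 0.36, Subread and DESeq2. The difference was not resolved, and coordinates are those of GENCODE M21 and RefSeq on GRCm38. Genotypes were compared on the log2 values with limma 3.58.1 (R 4.3.3, lmFit and eBayes with trend) over 22677 genes, after the 25% with the lowest mean were dropped, with Benjamini-Hochberg adjustment and a threshold of 0.05. The procedure was tested on simulated data. For single genes, an exact permutation test (two-sided) over the 20 possible groupings was used. Columns without a name (3) were not used, and 0 other columns held values per sample. The members, lists and tests were chosen with earlier results of these data known. Genes named are Top1mt, the members, 8 counterparts, up to 3 genes per list with the largest change without overlap, the 5 profiles nearest to Nnt, of which 1 is not reported here, and 2 neighbours on each side. Mthfd1l, Mthfd2, Gpx2, G6pdx, Cox4i1, Timm23, Ttr, Alb, Asgr1, Apob, Apoa1, Tat, Cps1, Krt19, Krt7, Epcam, Sox9, Spp1, Cd163, Lrat and Cdh5 were named after their values were seen. Gm42418, Lars2 and Gm15564 were read as checks of the libraries.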

Additional observations from a re-analysis of the deposited data

How the results depend on the processing

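Under 12 alternatives, 0 of the 9 members other than Nnt and 0 genes of the pathway lists passed an adjusted p of 0.05 by limma. The replicate block also gave 0 of 9, and it changed no other call. Deviations from the group mean correlated at -0.123, -0.0759 and 0.0520 between WT and KO libraries of one number. With 3 libraries a group these values cannot show whether tumors of one number were paired, and the labels do not say. Over all genes the count was 0, but 4 with no filter on low values, and leaving out one library gave between 0 and 1, the 1 without KO replicate 1. At an unadjusted p under 0.05 the members numbered from 0 to 1 with one library left out, the 1 being Txn2 without KO replicate 1. All genes at that level numbered 985, and 590 with a filter at the median, which tests fewer genes. After quantile normalization WT replicates 1 and 3 were the 2 highest in 1 member, Gpx1. That setting turned Me3 to 0.069 and Fgf10 to 0.0027.

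With one library left out, 15 of 29 genes followed changed direction, with log2 fold changes from -0.20 to 0.012 for Sod2, -0.36 to 0.053 for Prdx3, -0.11 to 0.061 for Glrx2, -0.25 to 0.017 for Gpx1, -0.35 to 0.21 for Gpx4, -0.30 to 0.12 for Idh2, -0.13 to 0.31 for Sod1, -0.041 to 0.43 for Cat, -0.053 to 0.17 for Prdx1, -0.0062 to 0.24 for Txn1, -0.44 to 0.093 for Txnrd1, -0.28 to 0.080 for Gsr, -0.63 to 0.53 for Me3, -0.038 to 0.22 for Paip1 and -0.095 to 0.011 for 4833420G17Rik. An alternative added after seeing the data left out both WT replicate 2 and KO replicate 1, which gave 0.0056 for Sod2, 0.12 for Idh2, -0.11 for Prdx1, -0.089 for Txn1, 0.46 for Me3 and 0.0022 for 4833420G17Rik. Nnt had 0.59 to 1.37 with one library left out. The causes were not tested.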
